A study of Homo sapiens with 4 samples.

Results

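The Notch pathway genes described here are NOTCH1, NOTCH2, NOTCH3, JAG1, JAG2, DLL1, RBPJ, MAML2, HES1 and HEY1, 10 of the 20042 genes that have a named probe on the array. They were chosen by name, and every probe annotated to them was read, 17 of 47230 probes in all. The samples were MDA-MB-468 cells, an established human line of triple-negative breast cancer that carries many copies of the EGFR gene. The 2 groups were wild type cells (2 samples) and cells with a knockout of mH2A1.2 (2 samples). mH2A1.2 (macroH2A1.2) is a histone H2A variant spliced from the gene MACROH2A1. The labels do not give how the knockout was made, whether its cells are 1 clone, or a treatment or time for either group. Total RNA was hybridised to 4 Illumina bead arrays on 1 chip, 1 array per sample.

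Notch signalling passes between touching cells. A ligand of the Jagged or Delta family on one cell binds a Notch receptor on its neighbour, the receptor is cut by an ADAM protease and then by the gamma-secretase complex, and the released intracellular part enters the nucleus. There it joins the DNA-binding protein RBPJ and a Mastermind coactivator and switches on genes such as those of the HES and HEY families, whose products are transcriptional repressors. In breast epithelium the pathway is known for its part in cell fate choice, and active NOTCH1 or high JAG1 has been linked to breast cancers without hormone receptors.

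Signals are given on a log2 scale after background correction and quantile normalization, and a probe was called detected on an array where its deposited detection p was under 0.05. Detected probes numbered 18753 and 18991 on the wild type arrays and 19817 and 19318 on knockout 1 and knockout 2. Probes detected on at least 2 arrays were kept for testing, 19752 in all, covering 11311 genes at the brightest kept probe of each. The lowest signal of a probe detected both by its own p and by that of probes of near signal lay between log2 6.03 and 6.05 on each array. Of 4 MACROH2A1 probes, the brightest read 13.04 and 12.96 in wild type cells against 12.32 and 12.12 in knockout cells. The difference was -0.78 ± 0.12 (limma adjusted p = 0.140), and -0.88 without knockout 1. Another MACROH2A1 probe differed by -1.03 and another by 0.78, the last was not detected, and the splice forms they read are not stated in the labels. EPCAM, KRT8, KRT18 and EGFR were detected on all 4 arrays, whereas CDH1 and KRT5 were not detected on any. The brightest EGFR probe read 8.65 and 8.61 in wild type cells against 8.72 and 9.70 in knockout cells. Its deposited detection p was 0.039 to 0.049, beside 0 for probes of near signal. The identity of the line was not tested with these markers. RB1 and SMAD4, which are known as genes lost from this line, had probes detected on every array, with probe positions not given. The 5 endothelial markers were not detected on any array, with summed signals of 775 to 811. Of 5 leukocyte markers, LCP1 and CD14 were detected and PTPRC was not, with sums of 1530 to 1966 in wild type and 1629 to 2165 in knockout. Of 9 fibroblast and mural cell markers, 3 were detected on each wild type array and 4 and 5 on the knockout arrays. These counts ask for both the deposited p and that of probes of near signal to be under 0.05. DCN is not counted, because the 3 kept of its 4 probes had near-signal p of 0.14 to 0.89. The sums were 2836 to 2900.5 in wild type and 2780 to 3001 in knockout, and the part of these markers in the differences below was not tested. In bulk RNA, fewer cells of a type and less RNA per cell cannot be told apart.

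No Notch gene passed the test between knockout and wild type. Of the 17 probes, 7 were detected on all 4 arrays, 5 on none, and 11 were kept, which left NOTCH3 as the one gene with no kept probe. By limma's moderated test with Benjamini-Hochberg adjustment over all kept probes, 0 of the 11 had an adjusted p under 0.05, as did 0% of all kept probes. At an unadjusted p under 0.05 the count was 0 of 11, beside 3415 of 19752 kept probes (17.3%), or 0 of 9 genes beside 21.4% of genes. The measured genes differed by -0.45 (NOTCH1) to 0.36 (JAG2), with a median of 0.10 over 9 genes beside -0.005 over all 11311. Their median size of difference, 0.20, was close to the 0.23 of all genes. With 2 arrays in each group only the spread between these samples was measured, and the labels do not say whether they were separate cultures.

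**Figure D1:**
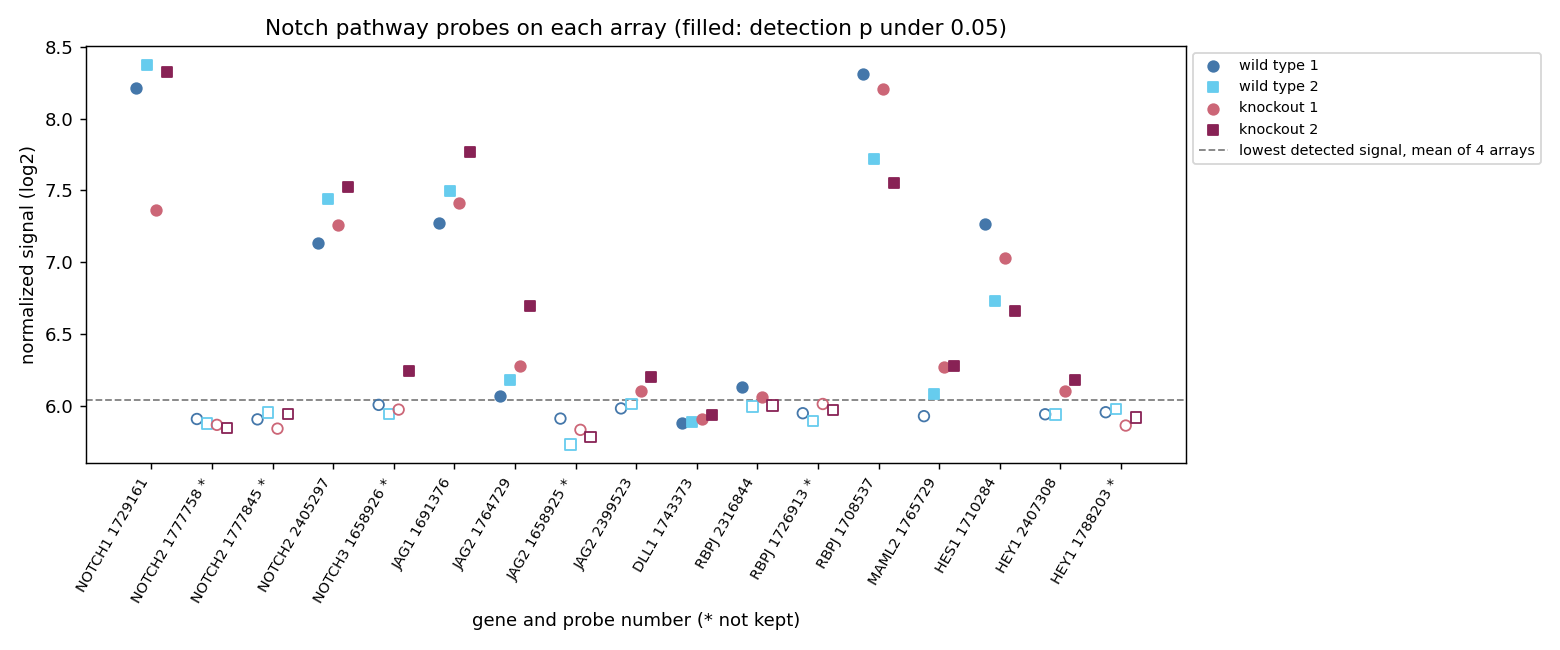
Normalized log2 signal (vertical axis) of the 17 probes of the 10 Notch genes (horizontal axis, by probe number) on each of the 4 arrays, with filled points where the probe was detected and an asterisk where it was not kept. Points of HES1 and RBPJ lie in 2 pairs that each mix the groups, NOTCH1 has 1 low point, knockout 1, and most other probes lie near the dashed line, the mean over arrays of the lowest detected signal (by both p values).

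Among the receptors, NOTCH1 was read by 1 probe (ILMN_1729161), which was detected on all 4 arrays. Its log2 signal was 8.21 and 8.37 on wild type 1 and 2, and 7.36 and 8.32 on knockout 1 and 2. Knockout 1 alone was low, and knockout 2 lay between the wild type arrays. The difference was -0.45 ± 0.36 (SE, 95% interval -1.44 to 0.54, adjusted p = 0.602, n = 2 in each group). Without knockout 1 it was 0.03, and without knockout 2 it was -0.93, so 1 array set its size and its sign. The deposited signal shows the same array apart before any normalization, at 300 on knockout 1 against 428 and 487 in wild type and 427 on knockout 2.

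NOTCH2 had 3 probes, of which 1 (ILMN_2405297) was detected, on every array. That probe read 7.14 and 7.44 in wild type cells against 7.26 and 7.52 in knockout cells. The groups overlapped, with knockout 1 between the wild type arrays, and the difference was 0.10 ± 0.17 (95% interval -0.37 to 0.58, adjusted p = 0.829). It was -0.05 without wild type 1 and -0.03 without knockout 2. The other NOTCH2 probes had signals of 127 to 144 and were not detected on any array. NOTCH2 has near-identical partial copies in the human genome, the NOTCH2NL genes, and whether these probes also read them is not given. NOTCH3 had 1 probe (ILMN_1658926), with signals of 147 and 142 in wild type, 146 on knockout 1 and 172 on knockout 2. It was detected on knockout 2 alone and was therefore not tested. NOTCH3 is the receptor best known from the smooth muscle cells of vessel walls, and of the mural markers counted above ACTA2 was high on the same array, at 7.998 beside 5.99 to 6.14 on the others. PDGFRB was also highest on knockout 2, at 7.68 beside 6.07 to 7.10, and 1 of 2 RGS5 probes was detected on that array alone. The brightest TAGLN probe was highest on wild type 1 (8.59 beside 7.83 on knockout 2), and COL1A1 on knockout 1 (6.32 beside 6.16 on knockout 2). Between groups that TAGLN probe differed by -0.81 and PDGFRB by 1.08, while COL3A1 and LUM were not detected on any array. Whether vessel wall cells were present in the samples was not tested. The part of these genes in the NOTCH3 signal was not tested.

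Among the ligands, JAG1 (ILMN_1691376), a ligand with a transmembrane anchor like all members of its family, was detected on every array and read 7.27 and 7.50 in wild type cells against 7.41 and 7.77 in knockout cells. Knockout 2 was the highest array and knockout 1 lay between the wild type arrays. JAG1 differed by 0.21 ± 0.18 (95% interval -0.29 to 0.70, adjusted p = 0.628), and by 0.03 without knockout 2 and 0.38 without knockout 1.

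JAG2, its close relative, was read near background. The brightest of its 3 probes (ILMN_1764729) was detected on all 4 arrays, with deposited signals of 154.5 and 170 in wild type cells against 182 and 218 in knockout cells. On the normalized scale it read 6.07 and 6.18 in wild type cells against 6.28 and 6.70 in knockout cells. Both knockout arrays were above both wild type arrays, with knockout 2 the farther, and the difference was 0.36 ± 0.18 (95% interval -0.14 to 0.87, adjusted p = 0.408). Without knockout 2 it was 0.15, and without knockout 1 it was 0.55. A second JAG2 probe (ILMN_2399523) read 5.98 and 6.01 in wild type, where it was not detected, and 6.10 and 6.20 in knockout, where it was. It was kept through the knockout arrays only. Its mean knockout signal was at least 1.08-fold higher than that of wild type. The 95% interval of the log2 difference was -0.13 to 0.44 (limma adjusted p = 0.531). The third JAG2 probe (ILMN_1658925) was not detected on any array, with signals of 113 to 135.

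DLL1, a ligand of the Delta type, had 1 probe (ILMN_1743373) that read 5.88 and 5.88 in wild type cells against 5.91 and 5.93 in knockout cells. Both knockout arrays were above both wild type arrays, and the difference was 0.04 ± 0.10 (95% interval -0.23 to 0.31, adjusted p = 0.898). Its signals of 131, 134, 138 and 137 lie below the lowest detected signal given above, and yet its deposited detection p was at most 0.0048. Probes of near signal on the same arrays had detection p values of 0.326 to 0.565. DLL1 was one of 115 to 121 probes on each array whose deposited detection p was more than 0.03 from that of probes of near signal, and the only Notch probe among them, so that a level of DLL1 above background is not shown by its signal.

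In the transcription complex, RBPJ varied more between the arrays of one group than between groups. Its brightest probe (ILMN_1708537) was detected on all 4 arrays and read 8.31 on wild type 1, 7.72 on wild type 2, 8.20 on knockout 1 and 7.55 on knockout 2. Wild type 1 and knockout 1 were high, wild type 2 and knockout 2 were low, and the difference of -0.14 ± 0.33 (95% interval -1.05 to 0.77, adjusted p = 0.889) was small beside gaps of 0.59 and 0.65 within the groups. RBPJ has no stated direction here, because it differed by 0.14 with arrays scaled to equal medians (where the median of all genes was 0.12), by 0.16 without wild type 1 and by 0.19 without knockout 2. A second RBPJ probe (ILMN_2316844), annotated to another transcript record, read 6.13 and 6.0 in wild type cells against 6.06 and 6.0 in knockout cells and was detected on 1 array of each group. Its difference was -0.03 ± 0.11 (adjusted p = 0.927). The third RBPJ probe (ILMN_1726913) was not detected, with signals of 136 to 151, and RBPJ has processed pseudogenes that a probe could also read.

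MAML2, one of the Mastermind coactivators that bridge the Notch and RBPJ proteins to histone acetyltransferases, had the smallest p of the measured genes in the main processing. HEY1 had a smaller one in several alternatives, among them the authors' values, an intensity trend, no detection filter and detection p from probes of near signal. The 1 MAML2 probe (ILMN_1765729) had deposited signals of 137 and 159 in wild type cells against 181 and 176 in knockout cells. It was detected on wild type 2 and both knockout arrays, so it needed a knockout array to be kept, which favours a higher knockout value. The normalized values were 5.93 and 6.08 in wild type cells against 6.27 and 6.27 in knockout cells. Both knockout arrays were above both wild type arrays and the 2 knockout arrays were equal to 2 decimals. The difference was 0.27 ± 0.11 (95% interval -0.04 to 0.58, adjusted p = 0.338), and it lay between 0.21 and 0.34 with any 1 array left out.

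HES1, a repressor that is the best known direct target of Notch, had 1 probe (ILMN_1710284), detected on all 4 arrays. It read 7.26 on wild type 1, 6.73 on wild type 2, 7.03 on knockout 1 and 6.66 on knockout 2, from signals of 280, 230, 260 and 214. As for RBPJ, the arrays numbered 1 were high in both groups and those numbered 2 were low, with gaps of 0.54 in wild type and 0.37 in knockout. The difference was -0.15 ± 0.25 (95% interval -0.85 to 0.55, adjusted p = 0.832), and it turned to 0.13 with arrays scaled to equal medians (all genes 0.12), 0.13 without wild type 1 and 0.03 without knockout 2.

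HEY1, a repressor related to HES1, was read by 2 probes that disagreed. The first (ILMN_2407308) had signals of 139 and 141 in wild type, where it was not detected, and 162 and 166 in knockout, where it was, so it was kept through the knockout arrays only. It read 5.94 and 5.94 in wild type cells against 6.10 and 6.18 in knockout cells, with both knockout arrays above. The difference was 0.20 ± 0.10 (95% interval -0.08 to 0.48, limma adjusted p = 0.405). The mean knockout signal was at least 1.07-fold higher against the lowest detected signal. The second probe (ILMN_1788203), annotated to the same transcript record, was not detected on any array, and its signals of 132 and 135 in knockout were below the 141 and 146 of wild type.

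RBPJ binds DNA at a short site whose core is TGGGAA (reverse complement TTCCCA), and the promoters of target genes can hold such sites. The core was searched on both strands in RefSeq promoter windows of build GRCh38.p14, each from 250 bases before to 50 bases after a gene's start. It was present in 24.0% of 35116 windows, and 3.8% held 2 or more matches. HES1 held 2 matches, which begin 84 and 70 bases before the start. Of 12 windows for 8 of the 10 genes, HES1 and 1 of the RBPJ windows held the core, with 2 matches each, and HEY1 and DLL1 had no entry. To set the target that was read here beside other HES and HEY genes, the stretch from 200 to 31 bases before the start is shown for HES1 (chr3:194135948-194136117, plus strand), HES4 (chr1:1000128-1000297, minus strand), HEYL (chr1:39639674-39639843, minus strand) and HES6 (chr2:238240069-238240238, minus strand), each 5' to 3' on the gene's strand with the core or its reverse complement in capitals.
HES1: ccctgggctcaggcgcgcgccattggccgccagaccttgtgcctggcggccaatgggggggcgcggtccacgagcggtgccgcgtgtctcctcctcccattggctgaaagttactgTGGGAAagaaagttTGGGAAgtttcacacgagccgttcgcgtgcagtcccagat
HES4: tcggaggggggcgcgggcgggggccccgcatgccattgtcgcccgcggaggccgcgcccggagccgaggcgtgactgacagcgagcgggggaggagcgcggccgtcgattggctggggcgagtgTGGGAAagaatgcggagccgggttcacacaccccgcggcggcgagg
HEYL: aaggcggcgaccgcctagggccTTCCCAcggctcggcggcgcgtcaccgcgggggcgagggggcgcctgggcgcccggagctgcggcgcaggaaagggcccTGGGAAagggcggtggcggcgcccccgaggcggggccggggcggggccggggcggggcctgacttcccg
HES6: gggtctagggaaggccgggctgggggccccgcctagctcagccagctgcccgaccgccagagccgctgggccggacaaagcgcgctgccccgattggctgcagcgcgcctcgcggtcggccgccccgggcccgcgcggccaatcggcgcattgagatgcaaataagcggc
HES1 carries both matches on the gene's strand, HES4 has 1, HEYL has 1 on each strand and HES6 has none in this window. Of 9 windows for 9 of the 12 other listed targets, 4 held the core (44.4%, beside 24.0% of all windows). HES2, HES7, NRARP and CDKN1A had no match either, and CCND1, MYC and SNAI2 had no entry. Of the genes shown, HES1 is described above. HES4 read 9.26 and 9.52 in wild type cells against 9.22 and 9.996 in knockout cells (0.22 ± 0.31) and HEYL read 6.34 and 6.61 against 6.23 and 6.21 (-0.26 ± 0.14, or -0.56 with detection p values from probes of near signal). HEY2, whose window also holds 2 matches and which was kept through the wild type arrays only, differed by -0.17 (-0.61 with those detection p values). HES5, also with 2, was not kept. A match describes the letters and not the binding of RBPJ.

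**Figure D2:**
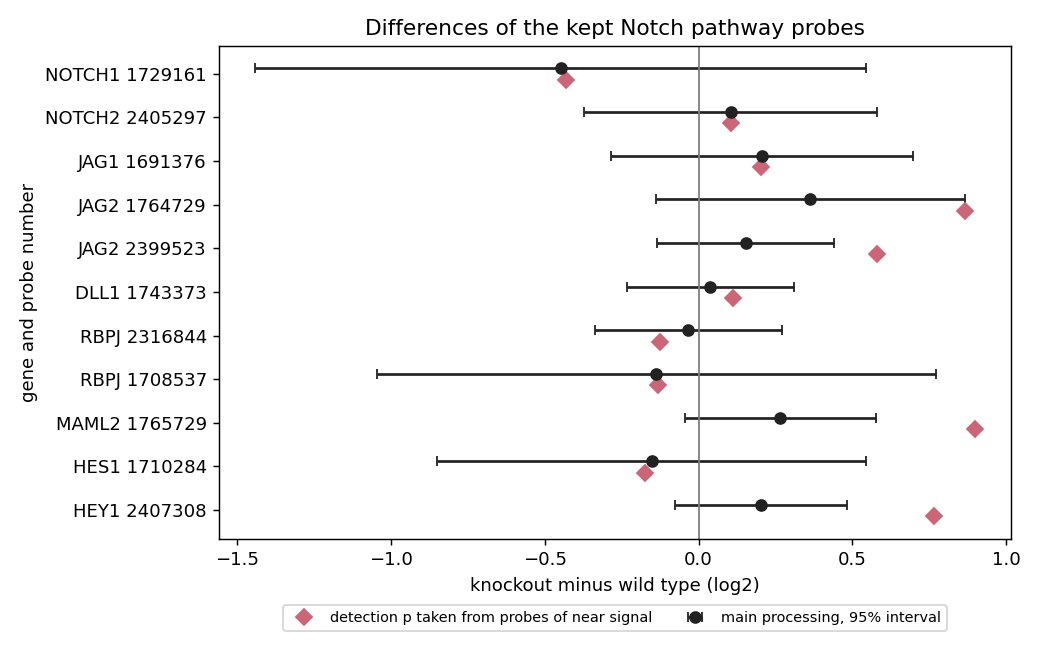
Difference between knockout and wild type (horizontal axis, log2) for the 11 kept probes of the Notch genes, as circles with 95% intervals from limma, and as diamonds after detection p values were taken from probes of near signal. All 11 intervals include 0, and the diamonds of JAG2, MAML2 and HEY1 lie well to the right of their circles, while those of NOTCH1, NOTCH2, JAG1, HES1 and the brighter RBPJ probe lie close to theirs.

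Beside each other, 4 of the 9 measured genes, JAG2, DLL1, MAML2 and HEY1, had both knockout arrays above both wild type arrays, and 0 had both below. Over all 11311 genes the shares were 25.9% above and 28.2% below, 54.1% in all. HEY1 was kept through the arrays where it is high. MAML2, detected on 1 wild type array, also needed a knockout array to be kept. The filter favours this order for both genes, and DLL1 lay below the lowest detected signal, so the count is no support for a shift. These 4 genes were all read near background, where the knockout arrays also had more detected probes in general, and the part of that in their order was not tested. The other 5 genes, NOTCH1, NOTCH2, JAG1, RBPJ and HES1, overlapped.

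How far apart the dim genes lay depended on how the background was estimated. The background was inferred from the detection p values, and the probes whose p did not match their signal widened its estimated SD to 83.9 and 59.3 signal units in wild type and 52.1 and 47.2 in knockout. When each probe's p was taken from the probes nearest in signal, an alternative chosen after seeing the data, the SD was 10.1 to 11.2 on all 4 arrays and dim probes were compressed less. MAML2 then read 4.71 and 5.31 in wild type cells against 5.91 and 5.92 in knockout cells, a difference of 0.90 (adjusted p = 0.222). HEY1 read 4.76 and 4.75 against 5.38 and 5.66, a difference of 0.77 (adjusted p = 0.210). JAG2 read 5.24 and 5.65 against 5.93 and 6.70, a difference of 0.87 (adjusted p = 0.278), and its second probe differed by 0.58. In all 3 genes both knockout arrays lay above both wild type arrays, as before, and the differences grew by more than 1.5 times. Under this alternative 3 of 8 measured Notch genes were higher in knockout at an unadjusted p under 0.05, beside 10.4% of 11265 genes (19.8% in either direction), and 0 of either passed the adjusted threshold (0% of genes). Of the 3, HEY1 was kept through the knockout arrays only, and MAML2 needed a knockout array to be kept. The place of both in that count is partly fixed by the filter. DLL1 was no longer kept, and the brighter genes barely moved, with NOTCH1 at -0.43, NOTCH2 at 0.11, JAG1 at 0.20, RBPJ at -0.13 and HES1 at -0.17.

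**Figure D3:**
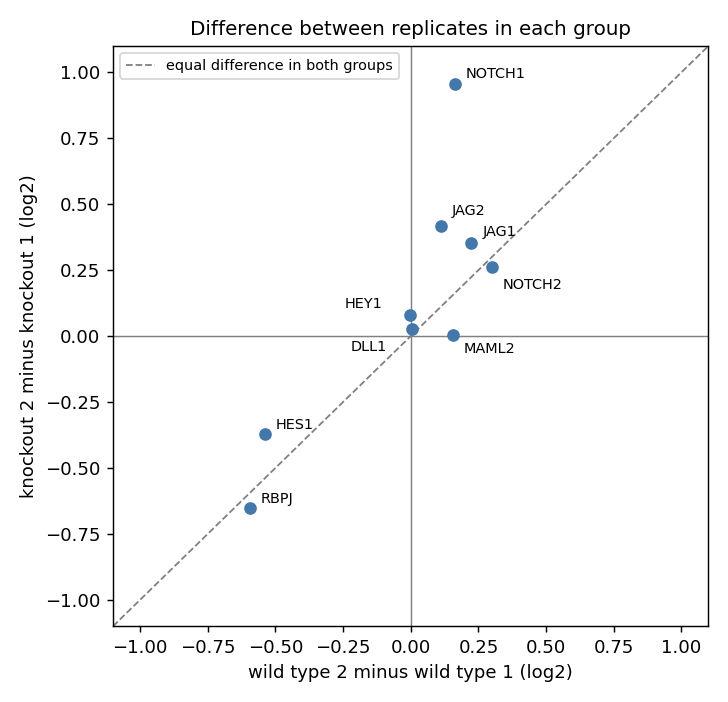
Difference between replicates, knockout 2 minus knockout 1 (vertical axis, log2) against wild type 2 minus wild type 1 (horizontal axis, log2), for the brightest kept probe of 9 Notch genes. RBPJ and HES1 lie low on both axes near the line of equal difference, and NOTCH1 lies far above it, with a gap of 0.96 in knockout beside 0.16 in wild type.

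The spread within the groups was as large as the differences between them for most of the brighter genes. The median gap between replicates over the 9 genes was 0.16 in wild type and 0.35 in knockout, beside 0.13 and 0.25 over all genes. RBPJ and HES1 had both arrays numbered 1 above both numbered 2, as 13.3% of all genes did. NOTCH1, NOTCH2 and JAG1 had both arrays numbered 2 above both numbered 1, as 17.6% of all genes did.

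The rest of the pathway was read from a list of 67 other genes, of which 63 were matched to a probe here and 48 were measured at their brightest kept probe. By limma 0 of the 48 passed the adjusted threshold, and at an unadjusted p under 0.05 there were 4 higher and 8 lower in knockout. Over all 11311 genes 0% passed after adjustment, and 10% were higher and 11.4% lower at that unadjusted level. With arrays scaled to equal medians, where all genes had a median difference of 0.12, the split was 5 higher and 3 lower, and that of all genes went from 1134 higher and 1284 lower to 1341 and 230. Without knockout 1 the spread within groups comes from the wild type arrays alone, so differences under that setting are given below as sizes only.

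**Figure D4:**
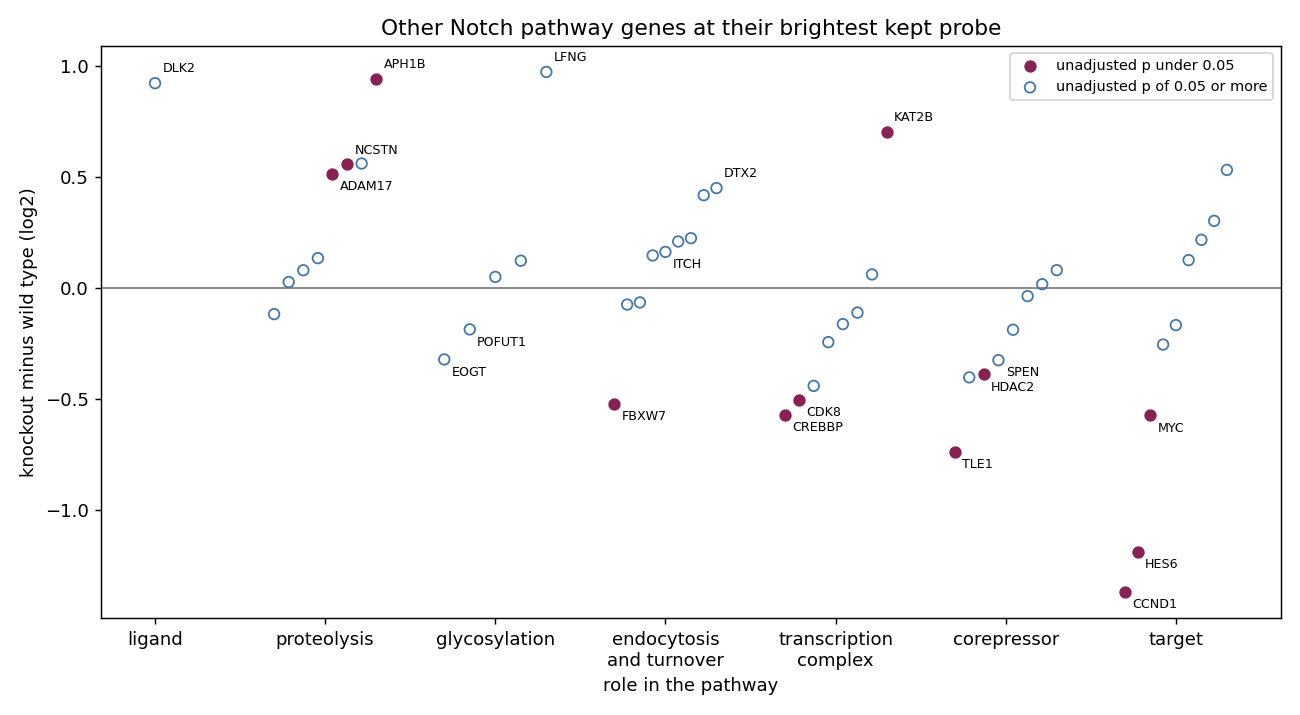
Difference between knockout and wild type (vertical axis, log2) of the 48 measured other genes of the pathway, grouped by role (horizontal axis), filled where the unadjusted p was under 0.05. The 3 filled proteolysis genes lie above 0, and the 3 filled genes listed as targets, CCND1, HES6 and MYC, lie below it.

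Of the proteolysis group 8 genes were measured, with 3 higher and 0 lower at an unadjusted p under 0.05 and a median of 0.32. APH1B, a subunit of gamma-secretase, read 7.64 and 7.89 in wild type cells against 8.73 and 8.68 in knockout cells, a difference of 0.94 ± 0.13 (adjusted p = 0.136, 0.92 without knockout 1). NCSTN, the subunit that receives the substrate, read 10.90 and 10.96 against 11.30 and 11.67, a difference of 0.55 ± 0.16 (adjusted p = 0.231, 0.73 without knockout 1 and 0.37 without knockout 2). ADAM17, a protease that can make the first cut, differed by 0.51 ± 0.17 at its brightest probe (adjusted p = 0.267, 0.71 without knockout 1 and 0.33 without knockout 2), by 0.05 and 0.004 at its other 2, and by 0.19 as the mean of its probes. For APH1B, NCSTN and ADAM17 at its brightest probe, both knockout arrays were above both wild type arrays, as for 25.9% of all genes. These genes were named for the smallest p in their role, which favours such an order. A second APH1B probe differed by 1.14. APH1A, the paralog of APH1B in the complex, read 10.02 and 10.03 in wild type cells against 10.01 and 10.09 in knockout cells. DLK2, a Delta-like protein without the domain that activates Notch, was the one measured gene of the other ligands and read 6.90 and 7.11 against 7.47 and 8.39, a difference of 0.92 ± 0.35 (adjusted p = 0.303, 1.37 without knockout 1 and 0.46 without knockout 2).

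At the brightest kept probe, 0 of the 5 measured glycosylation genes, whose enzymes add the sugars that tune ligand binding, had an unadjusted p under 0.05. LFNG, the fringe enzyme, read 7.32 and 6.72 in wild type cells against 9.12 and 6.86 in knockout cells. Knockout 1 was far above the other arrays, and the difference of 0.97 ± 0.83 became -0.15 without it and 2.11 without knockout 2. EOGT differed by -0.32 ± 0.15, with -0.18 without wild type 2 and -0.50 without wild type 1. POFUT1, the O-fucosyltransferase, differed by -0.19 ± 0.12 at its brightest probe and by 0.31 at another (unadjusted p under 0.05, limma adjusted p = 0.258), and by 0.02 with arrays scaled to equal medians. Among 9 measured genes of endocytosis and turnover, FBXW7, part of the ubiquitin ligase that marks the intracellular part of Notch for destruction, read 7.64 and 7.58 in wild type cells against 6.90 and 7.28 in knockout cells, a difference of -0.52 ± 0.17 (adjusted p = 0.253, -0.33 without knockout 1), while its other kept probes differed by -0.42 and 0.11. DTX2 and ITCH, both ubiquitin ligases, differed by 0.45 ± 0.25 and 0.16 ± 0.10, and DTX2 by 0.77 without knockout 1 and 0.12 without knockout 2.

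Of 8 measured genes in the transcription complex, 1 was higher and 2 were lower at an unadjusted p under 0.05. KAT2B, an acetyltransferase, read 8.39 and 8.42 in wild type cells against 8.86 and 9.35 in knockout cells (0.70 ± 0.20, adjusted p = 0.224), and differed by 0.46 without knockout 2. CREBBP, another acetyltransferase, read 9.50 and 9.31 against 9.04 and 8.61 (-0.57 ± 0.19, adjusted p = 0.268), with -0.36 without knockout 2 and -0.02 at its dimmer probe. CDK8, the kinase that phosphorylates the intracellular part of Notch for turnover, read 6.67 and 6.33 in wild type and was not detected in knockout, at 6.02 and 5.97. It was kept through the wild type arrays only, so the filter favoured a lower knockout value for this gene, which is 1 of the 2 lower genes. Its knockout level was at least 1.39-fold lower (adjusted p = 0.244), and the difference of -0.50 became -1.39 with detection p values from probes of near signal. The corepressors, which keep RBPJ targets off in the absence of Notch, had 0 higher and 2 lower of 8. TLE1 read 9.10 and 9.46 in wild type cells against 8.39 and 8.70 in knockout cells (-0.74 ± 0.19, adjusted p = 0.208). HDAC2 differed by -0.39 ± 0.14 (adjusted p = 0.281) and SPEN by -0.33 ± 0.16 (-0.19 without knockout 1). In each of the 3 the knockout values were all below the wild type values, as in 28.2% of all genes. The 3 were named for the smallest p in the role, which favours such an order.

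Of the other genes listed as targets 9 were measured, 0 higher and 3 lower at an unadjusted p under 0.05. They are not the same 9 genes as those with a promoter window. CCND1, cyclin D1 of the G1 phase, read 12.76 and 13.09 in wild type cells against 11.66 and 11.45 in knockout cells, a difference of -1.37 ± 0.17 (2.59-fold lower, adjusted p = 0.127, -1.47 without knockout 1). HES6, a HES protein known from mouse to oppose HES1, read 8.66 and 8.60 against 7.35 and 7.52, a difference of -1.19 ± 0.12 (2.28-fold lower, adjusted p = 0.127, -1.11 without knockout 1). MYC, a growth regulator, read 11.87 and 11.66 against 11.16 and 11.22, a difference of -0.57 ± 0.12 (adjusted p = 0.177), and its other probe differed by -0.88. In each of these 3 genes both knockout arrays were below both wild type arrays, as in 28.2% of all genes. They were named for the smallest p in their role, which favours such an order. CCND1 and MYC are targets of many pathways besides Notch. HES6 is called a target by the list alone. Its promoter window held no RBPJ core, and whether it responds to Notch was not tested. HEY2, a repressor like HEY1, was detected in wild type, at 6.07 and 6.08, and not in knockout, at 5.96 and 5.86. It was kept through the wild type arrays only, so the filter favoured a lower knockout value. The difference was -0.17 ± 0.10 (limma adjusted p = 0.494), with a bound of at least 1.03-fold lower. Genes of the list with a probe but none kept were NOTCH4, DLL3, DLL4, DLK1, MFNG, DTX1, DTX4, MIB1, NEURL1, MAML3, TLE2, TLE4, HES5, HES7 and NRARP.

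By the distance between centred log2 values over the 4 arrays, the 3 of 11310 genes with the pattern nearest to MAML2 were IRAK3 (0.0259), GUK1 (0.0275) and EXOC5 (0.0305). IRAK3 read 6.17 and 6.31 in wild type cells against 6.48 and 6.50 in knockout cells, and GUK1 read 11.34 and 11.52 against 11.72 and 11.71. The 4 points of each pattern come from the same 4 arrays, and so few points give many genes a like pattern.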

How the data were processed

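Total RNA of 2 wild type and 2 mH2A1.2 knockout samples was measured on 4 arrays. Per the file headers, the deposited table holds the signal intensity of 47230 probes per array, linear, not normalized and not background-subtracted, and a detection p-value for each. The authors' processed table holds deposited log2 values, used as an alternative. The submitters' processing notes name GenomeStudio. Its version and the normalization are not given in the sources used here.

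Intensities were corrected with limma's nec, which infers negative controls from detection p-values (offset 16), quantile normalized and taken to log2 in limma 3.58.1 (R 4.3.3). A probe was kept if its detection p was under 0.05 on 2 or more arrays. The groups were compared by limma's lmFit and eBayes, two-sided, with Benjamini-Hochberg adjustment over 19752 kept probes, threshold 0.05. Errors after ± are moderated standard errors, and precision is limited by the 4 arrays. Differences of dim probes are compressed by the offset. For a probe not detected in a group the fold is a lower bound, computed against its own signal or the array's lowest detected signal, whichever is higher. It bounds the mean over these arrays and does not take in the spread between them. Symbols came from GEO's platform annotation (30074 probes with 1 symbol, 8 with several, 17148 unnamed here), updated through a GRCh38.p14 gene table.

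Members and lists were chosen with earlier results of these data known. Named were all members, MACROH2A1, in each role the 3 other pathway genes with the smallest p, and the 3 genes nearest in pattern to the member with the smallest p. HES4, HEYL, HEY2 and APH1A were chosen after values were seen. The main fit was first tested on simulated data with independent noise on each array, and the alternative fits were not. Alternatives were no background correction, an offset of 50, the authors' values, equal medians, every probe without a filter, a detection limit of 0.01 met on all 4 arrays, 1 probe or the probe mean for each gene, a trend on intensity (plain or robust), a replicate block, each array left out, and detection p from probes of near signal, the last added after seeing the data.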

Additional observations from a re-analysis of the deposited data

Results flagged for a closer look

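NOTCH3 is outside the comparisons because its probe was detected on 1 array only. On knockout 2 its normalized signal was 6.24 with a deposited detection p of 0, above the values of 6.01 and 5.94 on the wild type arrays, where it was not detected. On knockout 1 it was 5.97 and was not detected either, so the knockout arrays did not share the signal. On the normalized scale knockout 2 was also the highest of the 4 arrays for NOTCH2, JAG1, JAG2, DLL1, MAML2 and HEY1. In deposited signals NOTCH2 was highest on wild type 2 (313), and DLL1 and MAML2 on knockout 1 (138 and 181). The share of all genes that were highest on knockout 2 was not counted.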

How the results depend on the processing

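Of 140 values of the measured Notch genes under 16 alternatives, 131 kept their direction, and JAG1, JAG2, DLL1, MAML2 and HEY1 kept it in each alternative that gave a value. The strict detection filter gave none for JAG2, MAML2 and HEY1, nor near-signal p for DLL1. Reversals, with the cause not tested, were RBPJ 0.14 and HES1 0.13 under equal medians, where all genes had a median of 0.12, and POFUT1 0.023 under equal medians and 0.041 as the mean of probes. With 1 array left out NOTCH1 ranged from -0.93 to 0.030, NOTCH2 from -0.047 (-0.027 without knockout 2) to 0.25, RBPJ from -0.47 to 0.19 (0.16 without wild type 1), HES1 from -0.41 to 0.13 (0.032 without knockout 2), LFNG from -0.15 to 2.11 and MACROH2A1 from -0.88 to -0.68. Past the adjusted threshold were 0 to 3802 of all kept probes (0 with all arrays, 2 without knockout 2), 0 to 9 other pathway genes and 0 Notch probes. Without 1 knockout array, the lone array is assumed to vary like wild type. The median over the Notch genes ranged from 0.03 to 0.23 with 1 array left out and was -0.049 over 6 genes with detection p under 0.01 on all 4 arrays, fewer genes than the 9 of the main value. At an unadjusted p under 0.05 the main fit had 0 of 9 Notch genes, beside 1134 higher and 1284 lower of 11311 genes. With the plain intensity trend there were 2 of 9, beside 1188 higher and 1155 lower of 11311. The robust trend also gave 2, beside 1179 higher and 1137 lower. With no detection filter there were 2 of 10, beside 1430 higher and 1745 lower of 20042 genes. Replicate numbers are shared by the groups, with nothing else in the labels that pairs them. By the file headers, the arrays numbered 1 were A and B of the chip and those numbered 2 were C and D. The part of this layout was not tested. Deviations of same-numbered arrays correlated at 0.49, and with a replicate block 0 probes passed and 4567 had an unadjusted p under 0.05, against 3415. Signal near background limits JAG2, DLL1, MAML2, HEY1 and NOTCH3.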
